A study of Mus musculus with 4 samples.

Results

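A set of 10 transcription factor genes known from the GATA family and from the mesenchyme of the stomach were followed across 2 mouse cell lines: Gata2, Gata3, Gata4, Gata6, Foxf1a, Foxf2, Tbx18, Tcf21, Barx1 and Nkx2-3. They were chosen by symbol, and each of the 10 had its own row among the 23358 gene rows of the deposited tables. RNA was sequenced from the clonal lines 2xSCS70 and 2xSCS2F10, both from the muscle layers of the mouse stomach and both labelled as progenitor lines of interstitial cells of Cajal, which pace the contractions of gut muscle. 2xSCS70 came from mice with the H-2Kb-tsA58 transgene, a temperature-sensitive SV40 large T antigen behind an interferon-inducible promoter, and was kept at 39.5 °C without interferon gamma. 2xSCS2F10 came from C57BL/6J mice and was kept at 37 °C with 5% chick embryo extract. Both lines grew in NeuroCult neural stem cell proliferation medium.

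Each line is 1 clone with 2 libraries, and line, strain, temperature and medium changed together, so that their effects cannot be told apart. Nothing in the labels ties the 2 libraries of a line to separate cultures. All p-values therefore rest on a spread between libraries that may be technical only. The libraries held 48971264 and 44737008 counts for 2xSCS70 and 40319972 and 45098902 counts for 2xSCS2F10, in the order of replicates 1 and 2, as in all lists of values below. All counts were even, so that 1 sequenced fragment made 2 counts. Of 6 marker genes of interstitial cells of Cajal, Kit, which defines the mature cells, had 0 and 2 counts in 2xSCS70 and 0 counts in both 2xSCS2F10 libraries. Ano1, the chloride channel of these cells, had 2.29 and 2.55 CPM (counts scaled to library size) in 2xSCS70 and 29.8 and 18.4 CPM in 2xSCS2F10, and the 6 genes summed to 96.7 and 103 CPM in 2xSCS70 and 178 and 152 CPM in 2xSCS2F10, most of it Gja1, a connexin of many cell types.

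GATA factors are zinc finger proteins named after the DNA letters they bind. Gata4 and Gata6 act in endoderm, heart and the coelomic lining of the embryo, and Gata2 and Gata3 are best known from blood cells, lymphocytes and several epithelia. Foxf1 (Foxf1a in the tables) and Foxf2 are forkhead factors of the mesenchyme around the gut and are induced there by Hedgehog ligands from the epithelium. Barx1 is a homeodomain factor of the embryonic stomach mesenchyme, Nkx2-3 marks mesenchyme of the intestine and spleen, and Tbx18 and Tcf21 mark the coelomic lining of heart and other organs and the mesenchymal cells that come from it.

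The GATA members were lower in 2xSCS70 apart from Gata2, and the forkhead members were higher. In edgeR's quasi-likelihood test, with Benjamini-Hochberg adjustment over the 14496 tested genes, 5 of the 7 tested members passed an adjusted p of 0.05. Foxf1a and Foxf2 rose in 2xSCS70 against 2xSCS2F10, and Gata3, Gata4 and Gata6 fell. Over all tested genes 40.6% passed, 18.8% in the direction higher in 2xSCS70 and 21.8% in the direction lower, so a count of 5 among 7 is to be read against a background where differences were common. Gata4 passed the filter on low counts only through 2xSCS2F10, where it is high, so its test is given as a description and its place among the 5 is no support for the count. Tcf21, Barx1 and Nkx2-3 did not pass it and were not tested.

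**Figure D1:**
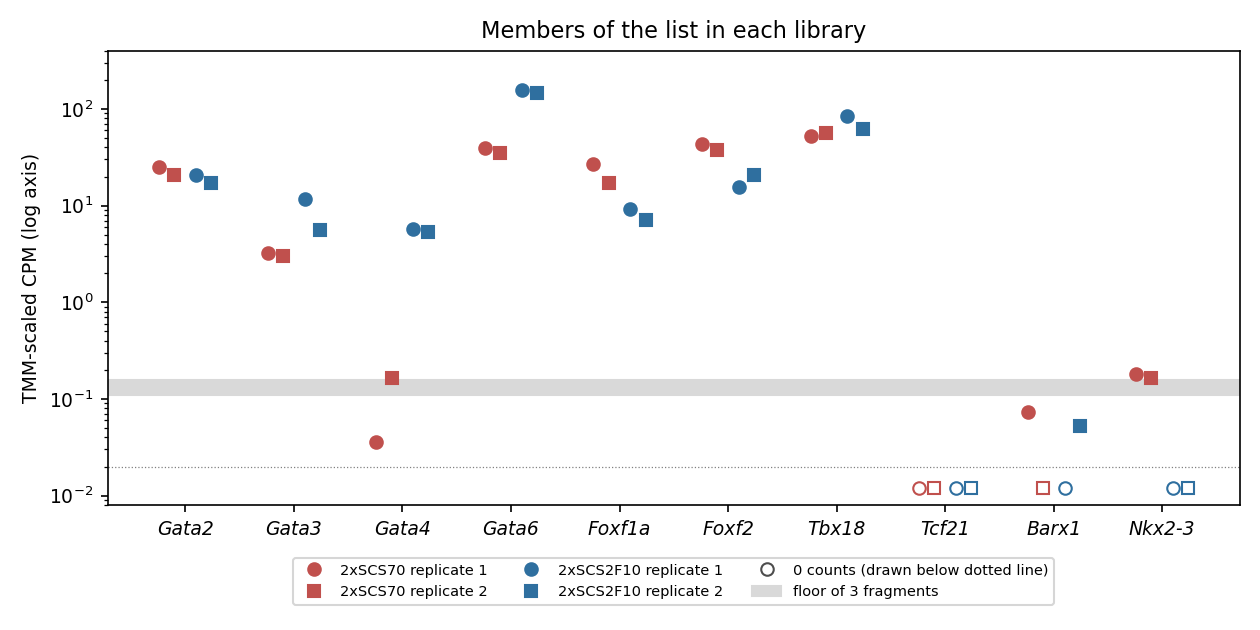
CPM (counts scaled to library size, log axis) of the 10 genes in each of the 4 libraries, 2xSCS70 in red and 2xSCS2F10 in blue, with open symbols for 0 counts and a grey band for the floor of 3 fragments. Gata6 lies between 35.1 and 39.6 CPM in 2xSCS70 and between 145 and 157 CPM in 2xSCS2F10, and Tcf21 has 0 counts in each library.

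Gata6 (chromosome 18, 11052510 to 11085635, plus strand, mm10) was the most abundant of the 10 genes in 2xSCS2F10. It had 39.6 and 35.1 CPM in 2xSCS70 and 157 and 145 CPM in 2xSCS2F10, which are means of 37.3 ± 3.23 and 151 ± 8.58 (SD, n = 2 each). Both 2xSCS70 libraries lay far below both 2xSCS2F10 libraries, and the 2 libraries of each line were close to each other. Gata6 fell 4.03-fold in 2xSCS70 (log2 fold change -2.01, SE 0.13, edgeR adjusted p = 0.00100), and it passed the test with any 1 of the 4 libraries left out. Per length, 75.8% of all rows had a lower mean RPKM (reads scaled to gene length and library size) than Gata6 in 2xSCS70, against 93.0% in 2xSCS2F10. The neighbouring rows of Gata6 moved little: Mib1, an E3 ubiquitin ligase of Notch signalling, had a log2 fold change of -0.11 (edgeR adjusted p = 0.644), and Rbbp8, a DNA end resection factor, had -0.09 (edgeR adjusted p = 0.579).

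Gata4 (chromosome 14, 63198915 to 63245260, minus strand), the close relative of Gata6, was near the limit of detection in 2xSCS70. It had 1 and 4 fragments there, or 0.0363 and 0.164 CPM, against 111 and 102 fragments in 2xSCS2F10, or 5.70 and 5.35 CPM. The 2xSCS2F10 libraries were alike, and the 2xSCS70 libraries lay on either side of the floor of 3 fragments, which stood at 0.109 and 0.123 CPM. Gata4 fell 55.2-fold (log2 fold change -5.79, SE 0.57, edgeR adjusted p = 0.00275). The scaled ratio of 2xSCS2F10 over 2xSCS70 was 57.4, with a 95% exact interval of 24.2 to 179 that covers counting error only. The size rested on the few fragments of 2xSCS70: the log2 fold change was -5.05 without replicate 1 of that line and -7.14 without replicate 2. Neil2, a DNA glycosylase gene 5389 bases from the Gata4 row, was also lower. It had 0.0726 and 0.0822 CPM in 2xSCS70, or 2 fragments each, and 1.03 and 1.26 CPM in 2xSCS2F10 (log2 fold change -3.84). Neil2 passed the filter on low counts only through 2xSCS2F10, so no p is given. Blk on the other side had 0 counts in all 4 libraries.

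Gata3 (chromosome 2, 9857078 to 9878600, minus strand) had 3.23 and 3.04 CPM in 2xSCS70 and 11.8 and 5.56 CPM in 2xSCS2F10. The lines did not overlap, but the 2xSCS2F10 libraries differed 2.12-fold from each other, and only 9.85% of tested genes differed more in that line. Gata3 fell 2.77-fold in 2xSCS70 (log2 fold change -1.47, SE 0.40, edgeR adjusted p = 0.0398). The log2 fold change was -0.84 without replicate 1 of 2xSCS2F10, and the gene no longer passed with limma-voom (adjusted p = 0.0560). Nor did it pass without replicate 1 or 2 of 2xSCS70, as was so for most genes that passed with 4 libraries. Gata2 (chromosome 6, 88198664 to 88207032, plus strand) did not pass: it had 24.9 and 21.0 CPM in 2xSCS70 and 20.7 and 17.2 CPM in 2xSCS2F10 (log2 fold change 0.28, SE 0.17, edgeR adjusted p = 0.248). The lowest 2xSCS70 library stood just above the highest 2xSCS2F10 library. Its neighbour Rpn1, a subunit of the oligosaccharyltransferase, fell (log2 fold change -0.54, edgeR adjusted p = 0.0343).

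The make-up of the GATA RNA differed between the lines, which is given as a description with no test. On the RPKM scale, which corrects for gene length, the 4 GATA genes summed to 18.5 and 14.6 RPKM in 2xSCS70 and 46.9 and 34.8 RPKM in 2xSCS2F10. Gata6 gave 58.8% and 59.5% of that sum in 2xSCS70, against 80.7% and 84.0% in 2xSCS2F10. Gata2 gave 36.3% and 35.1% in 2xSCS70, against 10.5% and 9.82% in 2xSCS2F10, and these shares were close between the libraries of each line and far apart between the lines. The ratio of Gata2 to Gata6 RPKM was 0.618 and 0.589 in 2xSCS70 and 0.130 and 0.117 in 2xSCS2F10. Gata4 gave 0.0507% and 0.263% of the GATA sum in 2xSCS70 and 2.76% and 2.93% in 2xSCS2F10, so that Gata6 was the most abundant GATA gene in all 4 libraries.

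**Figure D2:**
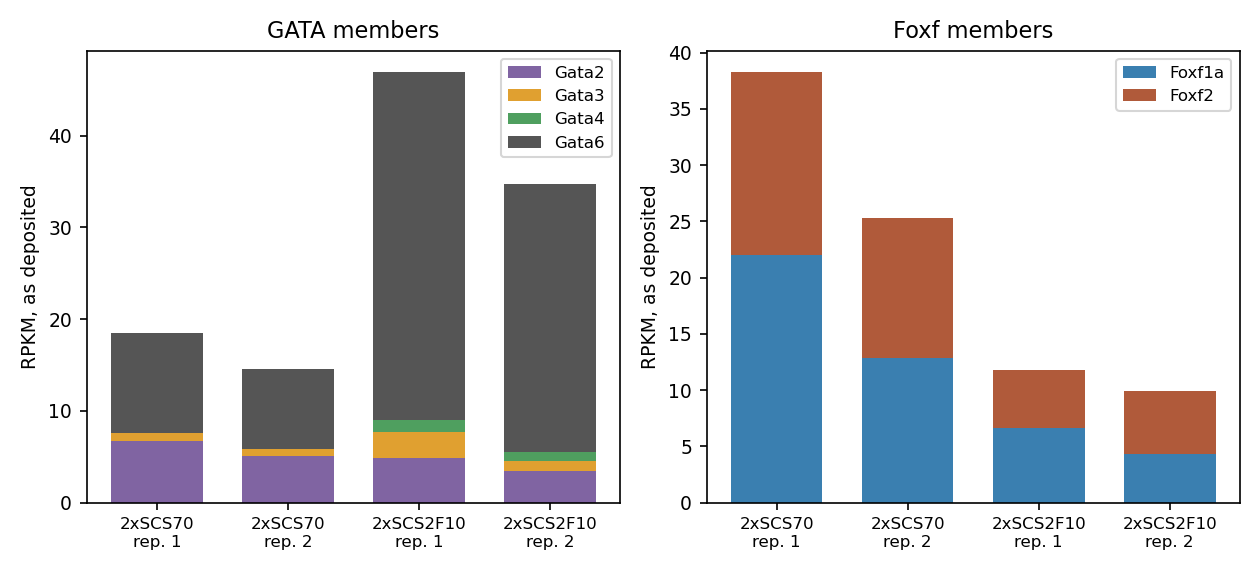
Deposited RPKM of the GATA genes (left) and the Foxf genes (right), stacked for each library with 2xSCS70 left of 2xSCS2F10. The GATA sum is 18.5 and 14.6 RPKM in 2xSCS70 and 46.9 and 34.8 RPKM in 2xSCS2F10, and the Foxf sum is 38.2 and 25.3 RPKM in 2xSCS70 and 11.8 and 9.94 RPKM in 2xSCS2F10.

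The forkhead pair moved the other way. Foxf2 (chromosome 13, 31625816 to 31631406, plus strand) had 43.9 and 37.3 CPM in 2xSCS70 and 15.7 and 20.5 CPM in 2xSCS2F10. All 2xSCS70 values lay above all 2xSCS2F10 values, and Foxf2 rose 2.24-fold (log2 fold change 1.16, SE 0.19, edgeR adjusted p = 0.00961). Foxf1a (chromosome 8, 121084474 to 121086879, plus strand) had 26.7 and 17.3 CPM in 2xSCS70 and 9.20 and 7.14 CPM in 2xSCS2F10. The lines did not overlap, while the 2xSCS70 libraries differed 1.54-fold from each other, and Foxf1a rose 2.69-fold (log2 fold change 1.43, SE 0.27, edgeR adjusted p = 0.0152). Without replicate 1 or 2 of 2xSCS70 neither gene passed, as was so for most genes that passed with 4 libraries. The log2 fold changes were then 1.08 and 1.71 for Foxf1a and 1.04 and 1.28 for Foxf2.

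Both genes kept a similar balance in the 2 lines. Foxf1a gave 57.5% and 50.8% of the Foxf RPKM in 2xSCS70 and 56.6% and 43.7% in 2xSCS2F10, ranges that overlapped. The row of Foxf1a covers only 1062 bases of exon, a shorter model than the gene in GENCODE M21, which runs from 121084386 to 121088144, and its RPKM depends on that length. Each forkhead gene had a long noncoding neighbour that was higher in 2xSCS70 as well. 1110050K14Rik, named Fendrr in RefSeq and transcribed from the other side of the Foxf1 start in mouse, lies 1441 bases before the Foxf1a row and had 21.9 and 20.1 CPM in 2xSCS70 and 6.01 and 2.26 CPM in 2xSCS2F10 (log2 fold change 2.34, edgeR adjusted p = 0.0171). 1700018A04Rik lies 43302 bases before Foxf2 and had 2.07 and 2.75 CPM in 2xSCS70 and 0.205 and 0.420 CPM in 2xSCS2F10 (log2 fold change 2.94). It passed the filter on low counts only through 2xSCS70, so no p is given. On the other side the rows did not follow: Mthfsd after Foxf1a fell (log2 fold change -0.82, edgeR adjusted p = 0.0203), and Foxc1, a forkhead gene 175239 bases after Foxf2, did not pass (log2 fold change 0.07, edgeR adjusted p = 0.834).

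**Figure D3:**
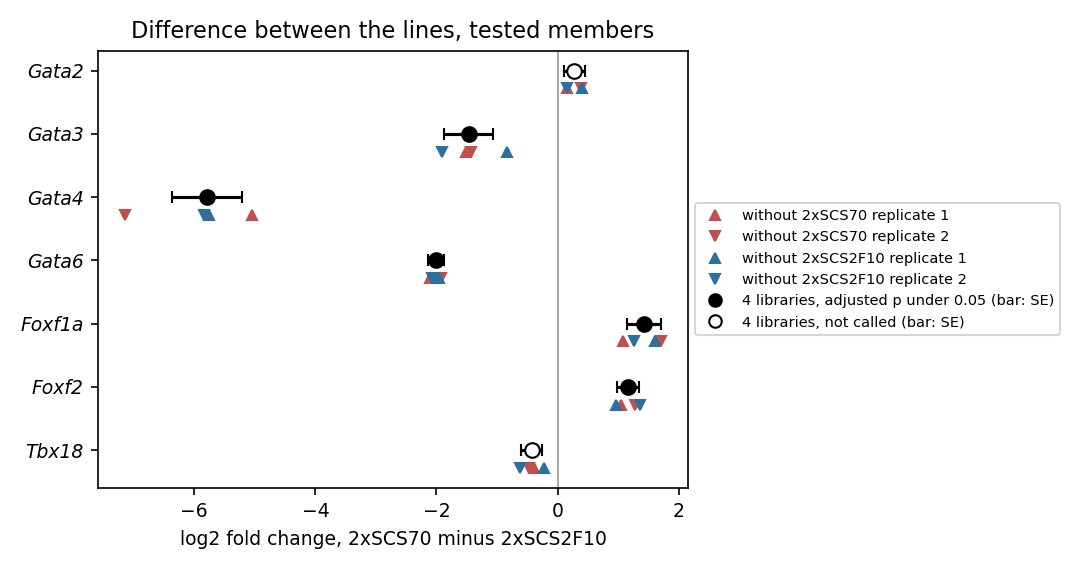
Log2 fold change, 2xSCS70 minus 2xSCS2F10, of the 7 tested genes with all 4 libraries (circles, filled where the adjusted p is under 0.05, bars for the SE) and with 1 library left out (triangles). Gata6 stays between -2.10 and -1.93, while Gata4 runs between -7.14 and -5.05 and Gata3 between -1.91 and -0.84.

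Tbx18 (chromosome 9, 87702800 to 87731260, minus strand), a T-box repressor, was abundant in both lines and did not pass. It had 52.5 and 56.2 CPM in 2xSCS70 and 83.8 and 62.6 CPM in 2xSCS2F10 (log2 fold change -0.43, SE 0.18, edgeR adjusted p = 0.109). The scaled values did not overlap, but in RPKM they did, at 9.82 and 9.49 in 2xSCS70 and 13.8 and 8.64 in 2xSCS2F10. Without replicate 2 of 2xSCS2F10, Tbx18 passed (log2 fold change -0.63, edgeR adjusted p = 4.78e-06). The RPKM of Gata6 was 1.11 and 0.914 times that of Tbx18 in 2xSCS70 and 2.74 and 3.38 times in 2xSCS2F10. Around Tbx18, 4922501C03Rik (Cep162 in RefSeq, a centriole gene) rose (log2 fold change 0.93, edgeR adjusted p = 0.00851) and Nt5e, the ecto-nucleotidase CD73, fell (log2 fold change -3.67, edgeR adjusted p = 0.00677).

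Tcf21, Barx1 and Nkx2-3 were at or near 0 counts at this depth. Tcf21 (chromosome 10, 22817275 to 22820128, minus strand), a bHLH factor, had 0 counts in all 4 libraries, which allows up to 0.109 and 0.123 CPM in 2xSCS70 and 0.154 and 0.157 CPM in 2xSCS2F10. Barx1 (chromosome 13, 48663036 to 48666507, plus strand) had 2 and 0 fragments in 2xSCS70 and 0 and 1 fragments in 2xSCS2F10, all under the floor, so that no fold is given. Nkx2-3 (chromosome 19, 43612325 to 43615892, plus strand) had 5 and 4 fragments in 2xSCS70, or 0.181 and 0.164 CPM, and none in 2xSCS2F10. Nkx2-3 was at least 1.11-fold higher in 2xSCS70 against the floor of 3 fragments in each library, and without the filter on low counts it did not pass (edgeR adjusted p = 0.0733). A row for Snora19, a small nucleolar RNA whose row spans much of the chromosome, overlaps Nkx2-3 and had 4 fragments in 2xSCS70 and 3 in 2xSCS2F10 in all.

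The rows next to these 3 genes had counts in every library and were tested. Tbpl1 and Eya4 beside Tcf21 did not pass (log2 fold changes -0.09 and 0.26, edgeR adjusted p = 0.550 and 0.213). Ptpdc1 and Phf2 beside Barx1 rose (log2 fold changes 1.32 and 0.85, edgeR adjusted p = 0.00740 and 0.00810). Got1 beside Nkx2-3, the cytosolic aspartate aminotransferase, fell (log2 fold change -1.15, edgeR adjusted p = 0.00255), and Slc25a28 on its other side did not pass (log2 fold change -0.58, edgeR adjusted p = 0.146). Of the 20 nearest rows of the 10 genes, 16 were tested, 5 rose and 5 fell, where 18.8% of all tested genes rose and 21.8% fell. These counts include 1700018A04Rik and Neil2, which passed the filter on low counts only through 1 line.

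The sequence before the start of 3 members is given to set a gene that rose (Foxf2) beside one with no counts (Tcf21) and one under the floor (Barx1). Each line is the 250 bases before the RefSeq start in GRCm38.p6, 5′ to 3′ on the strand of the gene, with every CG pair in capitals. The windows are chr13:31625566-31625815 (plus strand) for Foxf2, chr10:22820144-22820393 (minus strand) for Tcf21 and chr13:48662786-48663035 (plus strand) for Barx1.
Foxf2: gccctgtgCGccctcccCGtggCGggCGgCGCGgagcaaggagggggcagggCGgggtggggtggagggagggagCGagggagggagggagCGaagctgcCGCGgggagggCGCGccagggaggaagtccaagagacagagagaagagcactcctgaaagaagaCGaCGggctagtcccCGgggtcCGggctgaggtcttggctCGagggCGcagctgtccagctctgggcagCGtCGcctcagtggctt
Tcf21: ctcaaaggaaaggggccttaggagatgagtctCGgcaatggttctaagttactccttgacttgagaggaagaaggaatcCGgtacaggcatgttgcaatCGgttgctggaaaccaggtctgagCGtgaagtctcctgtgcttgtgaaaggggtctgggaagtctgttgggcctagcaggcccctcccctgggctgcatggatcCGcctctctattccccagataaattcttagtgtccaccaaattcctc
Barx1: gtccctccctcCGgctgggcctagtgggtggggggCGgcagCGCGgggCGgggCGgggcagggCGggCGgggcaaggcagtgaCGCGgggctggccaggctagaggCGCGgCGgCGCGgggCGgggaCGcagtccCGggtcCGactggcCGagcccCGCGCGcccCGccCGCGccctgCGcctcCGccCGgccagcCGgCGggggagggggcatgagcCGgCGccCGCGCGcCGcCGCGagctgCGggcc
Foxf2 had 21 CG pairs and 71.6% G and C, Tcf21 had 5 CG pairs and 52.4%, and Barx1 had 40 CG pairs and 85.6%. Over all 32851 RefSeq windows the medians were 6 CG pairs and 52.4%, and 83.65% of windows had fewer CG pairs than Foxf2, 44.42% fewer than Tcf21 and 98.69% fewer than Barx1. Dense CG pairs stood both before the gene that rose and before the one under the floor.

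RefSeq windows were at hand for 7 members, with 2 start sites for Gata2. The other windows held 22 and 24 CG pairs for Gata2, 19 for Gata3, 15 for Tbx18 and 14 for Nkx2-3, all above the median of 6. For GATA factors the letters AGATAA were searched on both strands, and so were the variant AGATAG, the variant TGATAA and the variant TGATAG. They occurred in 1 of these windows, that of Tcf21, and in 26.54% of all windows. The forkhead letters GTAAACA and the T-box letters GGTGTGA occurred in none of them, and in 3.17% and 3.33% of all windows. A match is a description of letters only.

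Levels of different members were compared per length. In 2xSCS70 the order by mean RPKM was Foxf1a (17.4), Foxf2 (14.4), Gata6 (9.77), Tbx18 (9.66), Gata2 (5.91), Gata3 (0.814), Nkx2-3 (0.0684), Gata4 (0.0238), Barx1 (0.0234) and Tcf21 (0). In 2xSCS2F10 it was Gata6 (33.5), Tbx18 (11.2), Foxf1a (5.51), Foxf2 (5.36), Gata2 (4.16), Gata3 (1.98), Gata4 (1.16) and Barx1 (0.0124), with Tcf21 and Nkx2-3 at 0. In 2xSCS70 the ranges of the 2 libraries overlapped between Foxf1a and Foxf2, between Gata6 and Tbx18, between Gata4 and Barx1 and between Barx1 and Tcf21. In 2xSCS2F10 they overlapped between Foxf1a and Foxf2, between Foxf1a and Gata2, between Gata3 and Gata4 and among the genes at or near 0. At least 1 RPKM in both libraries was reached by 5 members in 2xSCS70, namely Gata2, Gata6, Foxf1a, Foxf2 and Tbx18, and by these and Gata3 and Gata4, 7 in all, in 2xSCS2F10. Over all rows 46.3% reached that level in 2xSCS70 and 44.4% in 2xSCS2F10.

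The CPM ranges of the lines did not overlap for any of the 7 tested members, and the same held for 77.4% of all tested genes. The differences between replicates were smaller than the differences between lines for the 5 members that passed: the log2 ratio of replicate 2 over replicate 1 ran between -0.62 for Foxf1a and 2.18 for Gata4 in 2xSCS70, and between -1.09 for Gata3 and 0.38 for Foxf2 in 2xSCS2F10. For Tbx18 the replicate ratio in 2xSCS2F10, -0.42, was about as large as the line difference of -0.43. For Gata2 the replicate ratios of -0.25 and -0.27 matched the line difference of 0.28 in size.

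Since the kit does not keep strand, reads of genes that overlap on opposite strands cannot be told apart. In GENCODE M21 the rows of Gata3, Gata6, Tbx18, Tcf21, Foxf1a and Foxf2 overlap another gene on the other strand. All of Tcf21 lies within the span of Gm10824, Tbx18 shares 1976 bases with D030062O11Rik, and Gata3 shares 1345 bases with Gm13256. These are overlaps of whole gene spans, introns included. On its own strand all of Foxf1a, 2406 bases, lies within the span of Gm20388, annotated as a protein-coding gene. Of 4668 windows of 50 bases in Tbx18 transcripts, 18.2% also occur in transcripts of another gene on either strand, against at most 2.22% for the other members. None of the 2300 windows of Tcf21 did so, and no window was shared between members. The paralogs are thus told apart by reads of that length. The part of these overlaps in the results was not tested.

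Marker genes of mesothelium and smooth muscle differed strongly between the lines, while several other lists were mixed. Over all tested genes 18.8% rose in 2xSCS70 and 21.8% fell. The 7 genes of a mesothelium list, which includes Wt1, Msln and Upk3b, all fell, with summed levels of 107 and 95.6 CPM in 2xSCS70 and 3651 and 4088 CPM in 2xSCS2F10. Of 7 tested smooth muscle genes 6 fell, with sums of 840 and 777 CPM in 2xSCS70 and 5275 and 9351 CPM in 2xSCS2F10. Gata4 and Gata6 fell with these lists. In a fibroblast list of 7 genes, Cd34, Dpt and Ly6a rose, as Foxf1a and Foxf2 did, and Col1a1 and Col3a1 fell. Pdgfra and Pi16 did not pass, and the median log2 fold change of the fibroblast list was -0.48. Ly6a passed the filter on low counts only through 2xSCS70. That list summed to 8197 and 6663 CPM in 2xSCS70 and 14639 and 22650 CPM in 2xSCS2F10. The part of other cell types in the results was not tested, and in bulk RNA fewer cells of a type and less RNA per cell cannot be told apart. Blood cells use Gata2 and Gata3, and the sum over 9 blood genes was 2.50 and 3.78 CPM in 2xSCS70 and 2.52 and 4.09 CPM in 2xSCS2F10. In this list Cpa3 and Fcer1a had 0 counts in all 4 libraries, and Ptprc had 0 counts in both 2xSCS70 libraries and 6 and 0 counts in 2xSCS2F10. Lyz2, a lysozyme, was higher in 2xSCS70, with 1.31 and 2.22 CPM there and 0.154 and 0.157 CPM in 2xSCS2F10. Cma1, a mast cell protease, had 0 counts in 2xSCS70 and 5 and 7 fragments in 2xSCS2F10. Lyz2 passed the filter on low counts only through 2xSCS70 and Cma1 only through 2xSCS2F10, so no p is given. Csf1r had 0.980 and 1.27 CPM in 2xSCS70 and 1.90 and 3.41 CPM in 2xSCS2F10 and did not pass. An epithelium list of 7 genes summed to 0.580 and 0.699 CPM in 2xSCS70 and 15.1 and 10.9 CPM in 2xSCS2F10, so it was lower in 2xSCS70 along with Gata4 and Gata6. In it Epcam and Tff1 had 0 counts in all 4 libraries. Cdh1, or E-cadherin, fell, with 0.327 and 0.247 CPM in 2xSCS70 and 12.5 and 6.61 CPM in 2xSCS2F10 (edgeR adjusted p = 0.00223). Pgc had 0 and 1 fragments in 2xSCS70 and 43 and 75 in 2xSCS2F10. It passed the filter on low counts only through 2xSCS2F10, so no p is given. A list of 8 genes of enteric neurons and glia summed to 18.5 and 12.99 CPM in 2xSCS70 and 279.7 and 256 CPM in 2xSCS2F10, with 1 gene higher and 1 lower of 4 tested. An endothelium list of 6 genes summed to 4.86 and 4.15 CPM in 2xSCS70 and 5.86 and 9.39 CPM in 2xSCS2F10.

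Genes related to the members were read from 7 lists with 87 rows, of which 65 were tested, 15 rose and 19 fell in 2xSCS70. Their median log2 fold change was 0.07, against 0.02 over all tested genes and -0.43 over the 7 tested members. Over all tested genes 18.8% rose and 21.8% fell, and the counts of each list below are to be read against these shares. Among the other GATA genes and partners of GATA factors 10 of 12 were tested, 2 rose and 1 fell, with a median of 0.10. Zfpm1, the GATA cofactor FOG1, fell with 61.2 and 44.6 CPM in 2xSCS70 and 99.97 and 98.3 CPM in 2xSCS2F10 (log2 fold change -0.90, edgeR adjusted p = 0.0174). Lmo2 and Tal1, which join GATA factors in a complex in blood cells, were at least 2.89-fold and 3.33-fold higher in 2xSCS70, with 9 and 14 fragments for Lmo2 and 15 and 12 for Tal1, and had 0 counts in 2xSCS2F10. They passed the filter on low counts only through 2xSCS70, so no p is given. The most abundant of the list that did not pass included Gatad2a and Ldb1.

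Of 10 tested forkhead genes 2 rose and 2 fell, with a median of 0.54. Foxq1 rose 2.95-fold in 2xSCS70 (edgeR adjusted p = 0.0137). Foxp2 and Foxs1 fell and had 2 fragments each over both 2xSCS70 libraries, with scaled ratios of 2xSCS2F10 over 2xSCS70 of 55.2 (95% exact interval 14.8 to 464) and 43.8 (11.6 to 369). Of 4 tested T-box genes only Tbx15, a factor of skeletal mesenchyme, passed, and it rose 2.32-fold (edgeR adjusted p = 0.0145). Of 8 tested bHLH genes 2 rose and 2 fell: Tcf4 and Tcf12, broadly expressed E proteins, rose 1.68-fold and 1.49-fold (edgeR adjusted p = 0.0114 and 0.0147). Hand2, a factor of heart, limb and neural crest, fell 4.73-fold (edgeR adjusted p = 0.00880). Tcf23 fell, with 1 and 5 fragments in 2xSCS70 and 91 and 56 in 2xSCS2F10, and its scaled ratio of 2xSCS2F10 over 2xSCS70 was 33.0 (95% exact interval 14.8 to 91.4).

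Factors of gut region were split. Of 14 tested genes 4 rose and 6 fell, with a median of 0.03. Meis2, a homeodomain cofactor of Hox proteins, had 19.7 and 19.3 CPM in 2xSCS70 and 95.9 and 93.2 CPM in 2xSCS2F10, and fell 4.84-fold (edgeR adjusted p = 0.000648). Meis1 fell 3.56-fold (edgeR adjusted p = 0.00355). Osr1, a zinc finger factor of intermediate and lateral mesoderm, had 9 and 3 fragments in 2xSCS70 and 94 and 142 in 2xSCS2F10, a 26.6-fold fall. Osr1 passed the filter on low counts only through 2xSCS2F10, so no p is given. Hlx, which the mouse gut mesenchyme needs for growth of the organ, rose 4.32-fold (edgeR adjusted p = 0.00467).

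Coelomic lining factors had the lowest median of the 7 lists, at -1.33, with 3 of 10 tested genes higher and 5 lower. Wt1, the Wilms tumour factor, had 12.5 and 11.8 CPM in 2xSCS70 and 212 and 224 CPM in 2xSCS2F10 and fell 17.9-fold (edgeR adjusted p = 0.000347). Bnc1, a zinc finger factor of mesothelium and keratinocytes, fell 8.60-fold (edgeR adjusted p = 0.00152). Sox11 had 1 fragment in 2xSCS70, with a ratio of 2xSCS2F10 over 2xSCS70 of 641 (95% exact interval 115 to 25382). Lhx2, a LIM homeodomain factor, went the other way, with 2 fragments in 2xSCS2F10 and a ratio of 2xSCS70 over 2xSCS2F10 of 296 (81.7 to 2450). Wt1 stands in the mesothelium list too, so that the 2 lists are not independent.

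Of 9 tested genes that mouse studies tie to the members or their tissues, 1 rose and 3 fell, with a median of -0.42. Sfrp1 and Sfrp2, secreted Wnt inhibitors that depend on Barx1 in mouse stomach mesenchyme, differed from each other. Sfrp2 was higher in 2xSCS70, with a mean of 2.33 ± 0.941 CPM there (SD, n = 2) and 2 fragments in 2xSCS2F10. Sfrp2 passed the filter on low counts only through 2xSCS70, so no p is given. Sfrp1 did not pass (edgeR adjusted p = 0.691). Madcam1, an adhesion molecule of vessels in gut and spleen that depends on Nkx2-3 in mouse, did not pass and stayed at or under 0.327 CPM. Bmp4 and Wnt5a are secreted signals that change in mice without Foxf1 or Foxf2. Bmp4 had 89.6 and 79.0 CPM in 2xSCS70 and 124 and 71.5 CPM in 2xSCS2F10 and did not pass (edgeR adjusted p = 0.566), while Wnt5a fell 5.88-fold (edgeR adjusted p = 0.000648). Aldh1a2, a retinoic acid synthase, had 1 fragment in 2xSCS70 with a ratio of 2xSCS2F10 over 2xSCS70 of 609 (95% exact interval 109 to 24104), and Icam1, an adhesion molecule, fell 13.8-fold (edgeR adjusted p = 0.00117).

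**Figure D4:**
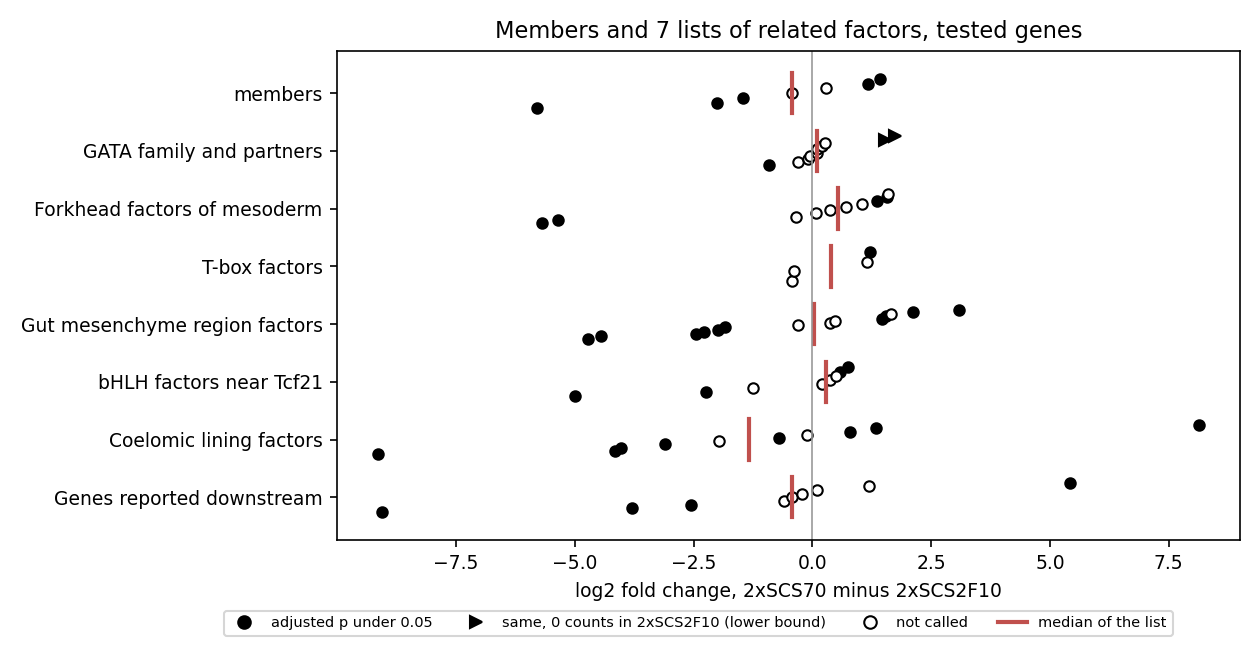
Log2 fold change, 2xSCS70 minus 2xSCS2F10, of the tested members and of the tested genes of 7 lists, filled where the adjusted p is under 0.05, with triangles for genes at 0 counts in 2xSCS2F10 drawn at their lower bound and a red bar for the median. The median is -0.43 for the members and lies between -1.33 for coelomic lining factors and 0.54 for forkhead factors.

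Most of the 24 genes that the naming rule took from the lists no longer passed when a 2xSCS70 library was left out. The same held for most of all genes that passed with 4 libraries, so it does not set these genes apart. Those that passed without either 2xSCS70 library were Meis2, Osr1, Wt1, Bnc1, Sox11, Lhx2, Wnt5a and Icam1. Of the members other than Gata4, only Gata6 did so. Foxp2, Foxs1, Osr1, Tcf23, Sox11 and Aldh1a2 passed the filter on low counts only through 2xSCS2F10, and Lmo2, Tal1, Lhx2 and Sfrp2 only through 2xSCS70, so the tests of these genes are descriptions of genes chosen for a high level in 1 line.

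The pattern over the 4 libraries was compared between genes by the root mean square difference of log2 CPM after centring each gene. The nearest genes were Fgd3 (0.0350) and Gsn (0.0520) for Gata6, Prrg4 (0.151) and Adcyap1r1 (0.191) for Gata4, and Slc16a1 (0.0814) and Pde8b (0.0866) for Gata3. For Foxf1a they were Fam98c (0.0490) and Tmem149 (0.0777), and for Foxf2 Sod3 (0.0271) and Slc35e4 (0.0379). Within 0.25 there were 208 genes for Gata6, 10 for Gata4, 77 for Gata3, 213 for Foxf1a and 710 for Foxf2. With 4 libraries of 2 lines, the measure mostly reflects the line difference.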

How the data were processed

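RNA of the 4 libraries was prepared with a TruSeq mRNA kit, which does not keep strand, per the labels' protocols. Reads were processed with TopHat2 2.0.6, Bowtie and HTSeq on mm10, per the submitters' processing notes. The deposited tables hold counts per gene and RPKM values made by the authors, per the file headers. The counts as deposited were all even and were used unchanged. The column of gene lengths behind the RPKM is the authors'. A total of 25 gene symbols that some tables gave as dates were restored from the others, whose rows matched in position.

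Counts were tested with edgeR 4.0.16 in R 4.3.3 (quasi-likelihood test, TMM scaling, default filter on low counts, threshold 0.05 after Benjamini-Hochberg adjustment), with line as the only term. Of 23358 rows 14496 were tested. CPM values are scaled by TMM, and fitted log2 fold changes use a prior count. The biological coefficient of variation was 20.4%. Promoter windows came from RefSeq and gene overlaps from GENCODE M21. Named were the 10 members, the called genes of each list up to 4 by adjusted p, the nearest rows and the 2 genes most alike for each called member; other genes named were chosen after their values were seen, and 1 gene that the rule takes is not reported here. Members and lists were chosen with earlier results of these data known. Intervals and floors cover counting error only.

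Other settings tried were each library left out, the replicate number as a block, DESeq2 1.42.0, limma-voom (limma 3.58.1), limma on log2(RPKM + 0.1) or on log2(RPKM + 1), upper quartile or RLE scaling, a filter at a mean of 5 CPM or none, fragments in place of counts, a threshold of 1.5-fold in the test, and detection at 0.5 or 2 RPKM. Python 3.11.15 with scipy 1.17.1, pandas 2.3.3, numpy 2.4.6 and matplotlib 3.10.9 made the tables and plots.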

Additional observations from a re-analysis of the deposited data

How the results depend on the processing

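None of the 104 values of the tested members under the alternatives changed sign. Gata4, with a mean under 5 CPM, was not tested under that filter. Gata3 missed the threshold with limma-voom (log2 fold change -1.37, adjusted p = 0.0560), on log2(RPKM + 1) (-0.65, 0.119), on log2(RPKM + 0.1) (-1.05, 0.0995) and against a 1.5-fold change (-1.47, edgeR adjusted p = 0.0990), where 3094 genes in place of 5888 passed. With 1 library left out, the lone library of its line being taken to vary like the other line, between 850 and 9567 genes passed, 2 to 6 members, 0 to 3 of them higher, and 8 to 52 of the list genes. The log2 fold changes then ran from 0.15 to 0.40 for Gata2, which passed without replicate 1 of 2xSCS2F10 (edgeR adjusted p = 0.0140), from -1.91 to -0.84 for Gata3, from -7.14 to -5.05 for Gata4, from -2.10 to -1.93 for Gata6, from -0.63 to -0.22 for Tbx18, from 1.08 to 1.71 for Foxf1a and from 0.97 to 1.37 for Foxf2. The cause of these changes was not tested. For the 24 list genes that the naming rule took, 7 further values missed the threshold, among them 3 for Zfpm1 and those for Foxp2, Tcf4 and Tcf12. On the RPKM scale 63.8% (pseudocount 1) and 63.2% (0.1) of called genes were higher in 2xSCS70, against 46.3% in the test on counts, and the median log2 fold change of all genes was 0.15 and 0.25, against 0.02. The replicate differences of the lines had a correlation of 0.05, which cannot settle whether libraries of the same replicate number were handled together. With a replicate block the same 5 members passed, with log2 fold changes of -1.38 for Gata3 and 1.41 for Foxf1a. Below 3 fragments, or 0.109 to 0.157 CPM, a difference in Tcf21 or Barx1 was not detectable at this depth.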
